A study of Homo sapiens with 6 samples.

Results

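The nuclear-encoded genes of the respiratory chain were followed across live and processed cultures of differentiated human embryonic stem cells, mixtures that contain insulin-expressing cells. Members were the rows whose symbol carries the family names of complexes I to V (NDUFA, NDUFB, NDUFC, NDUFS, NDUFV, SDHA to SDHD, UQCR, CYC1, COX and ATP5). The rule found 82 of the 31410 symbols of the table. Of these, 73 reached the intensity minimum of 40 on at least 3 of 6 arrays and were tested among 12653 genes. The other 9 are named below without a fold change.

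The processed group held 3 samples, fixed with paraformaldehyde, permeabilized, stained with antibodies, run through a cell sorter with every cell kept, and extracted with a protocol for fixed cells. The live group held 3 samples of fresh, unfixed and unsorted cells extracted with the Qiagen column kit. Each differentiation gave 1 sample of each group, so the arrays form 3 pairs. Differentiation 3 was of the line HUES8, and differentiations 1 and 2 were of the line H1, both unmodified human embryonic stem cell lines. All cultures had been taken stepwise to stage 6, the last stage, and were mixtures that contain insulin-expressing cells rather than a pure population. Each RNA was hybridised to an Illumina HT-12 array, and values are normalized intensities of arbitrary unit. Differences are given on the log2(intensity + 20) scale, where -1 stands for a halving of the intensity plus 20.

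The respiratory chain of the inner mitochondrial membrane passes electrons to oxygen and pumps protons, and ATP synthase uses the proton gradient to make ATP. Complex I takes electrons from NADH and complex II from succinate, both hand them to ubiquinone, complex III passes them to cytochrome c, and complex IV reduces oxygen. Most subunits are encoded in the nucleus, a few core subunits of complexes I, III, IV and V by mitochondrial DNA. In beta cells ATP made from glucose closes a potassium channel and so triggers insulin release.

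Median intensity per array was between 22.5 and 27.4, and between 12297 and 12698 genes reached 40. Endocrine markers were present on every array, with insulin (INS) between 1898 and 5069, glucagon (GCG) between 978 and 3634 and chromogranin A (CHGA) between 7128 and 16610. Of 8 pluripotency markers, POU5F1, NANOG and TDGF1 did not pass the intensity minimum and 5 did, and the list summed to 4807 (processed) and 5581 (live) in HUES8, against 3113 to 4379 in H1. The summed intensity of 12 liver and gut endoderm markers was 4012 (processed) and 3186 (live) in HUES8, against 14270 to 20560 on the H1 arrays. In these bulk samples, fewer cells of a type and less RNA per cell cannot be told apart.

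No respiratory chain gene passed the test between processed and live samples, but the members sat below 0 more often than genes at large. Their median difference, processed minus live, was -0.16, against -0.03 over all 12653 genes. The mean difference was below 0 for 61 of 73 members (83.6%), against 56.1% of all genes. In all 3 pairs 30 members (41.1%) were lower in the processed sample, against 19.8% of all genes, while 3 members (4.11%) were higher in all 3, against 13.7%. Mean differences ran between -0.46 and 0.18, and no member reached a 2-fold difference in any pair, which 3.09% of all genes did in at least 1.

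The shift was not of the same size in every pair. Member medians were -0.04 in the HUES8 pair and -0.18 and -0.21 in H1 pairs 1 and 2. In the HUES8 pair 43 members were lower in the processed sample, against 50.9% of all genes, and in H1 pairs 1 and 2 it was 58 and 56 members, against 50% and 59.1%. Scaling every array to a common median kept the members' median below 0 at -0.05 while the median of all genes moved to 0.07. H1 pair 2 then turned to 0.02, and after quantile normalization it was at -0.03, nearer 0 than the HUES8 pair at -0.06, so the order of the pairs depended on the scaling. With the common median, which is over all symbols and under 40 on every array, the count lower in every pair was 15 members, against 8.39% of all genes. Scaling to the median of the tested genes left the members' median at -0.16, against -0.03 over all genes. The count was then 31 members, against 20.3%, and after quantile normalization 25, against 17.6%. Members' share of the summed intensity of an array, a measure the array scaling leaves unchanged and that the brightest genes dominate, was 1.17% in the processed and 1.23% in the live HUES8 sample. In H1 it was 1.32% and 1.33% in the processed and 1.44% and 1.43% in the live samples of differentiations 1 and 2.

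Limma with the differentiation as a block and Benjamini-Hochberg adjustment called 0 of 73 members and 0 of 12653 genes (0%), and the smallest adjusted p of a member was 0.395. At an unadjusted p under 0.05 limma gave 5 members, all lower, against 9.65% of all genes in both directions, 4.76% lower and 4.89% higher. The median 95% interval of a member extended 0.32 to either side of its mean difference. By signal, 36 of the 73 members were among the 1266 brightest tested genes. These members had a median of -0.17, and -0.35 in H1 pair 2, against -0.14, and -0.30 in that pair, over all 1266 genes. In H1 pair 1 they were at -0.15, against -0.07 over those genes. In the next 2 bins of signal below, 15 and 8 members had medians of -0.13 and -0.12, against -0.08 and -0.04 over all genes of those bins. Of the marker lists, neural markers had a median of -0.27 and endocrine markers of -0.15, while pancreatic progenitor and duct markers were at 0.12. The neural list summed to 4814, 2657 and 5611 in processed and 4811, 3203 and 7651 in live samples 1, 2 and 3. The endocrine list summed to 20200 to 27570 in processed and 26070 to 29830 in live samples, and the progenitor and duct list to 4376 to 8513 in processed and 4241 to 8884 in live samples. Striated muscle markers were at -0.14, pluripotency markers at -0.09, mesenchyme markers at -0.06 and liver and gut endoderm markers at 0.04. The part that signal intensity or cell types play in the members' shift was not tested.

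**Figure D1:**
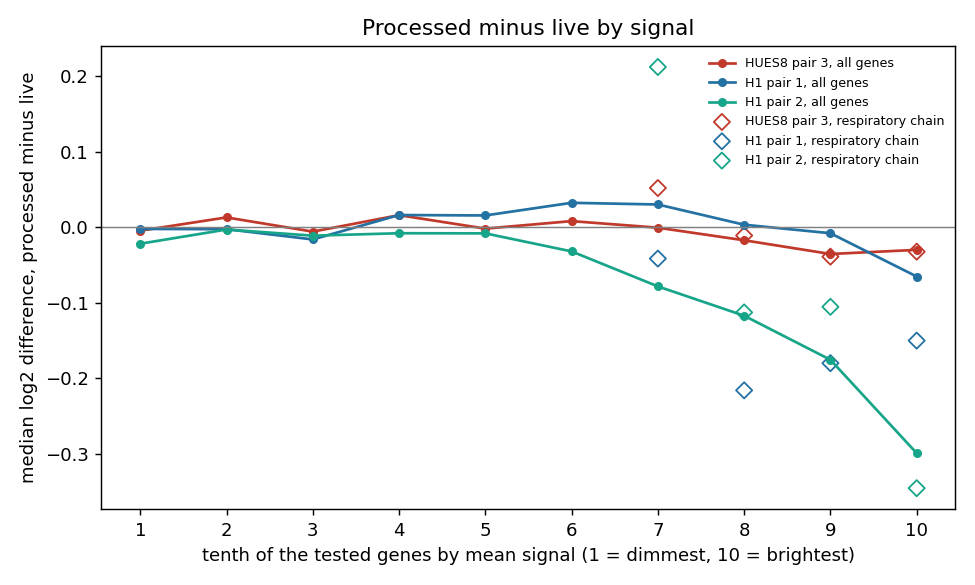
Median log2(intensity + 20) difference, processed minus live, in each pair, over 10 bins of the 12653 tested genes ordered by mean intensity, with lines for all genes and open diamonds for respiratory chain genes (bins with at least 5 members). In the brightest bin the medians of the 36 members were -0.03 in the HUES8 pair and -0.15 and -0.35 in H1 pairs 1 and 2, against -0.03, -0.07 and -0.30 for all genes.

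Complex I was represented by 33 tested members of 36, and its median difference was -0.14, from pair medians of -0.06 in HUES8 and -0.25 and -0.18 in H1. With the deposited scaling all 7 core subunits, which carry the flavin and iron-sulfur centres, had a mean difference below 0, with a median of -0.21. The median of the complex was -0.10 with quantile-normalized arrays and -0.03 under scaling to a common median. Among 26 accessory subunits, 19 were below 0 and the median was -0.12, while 56.1% of all tested genes were below 0. With the deposited scaling the members with a limma unadjusted p under 0.05 were all of this complex (NDUFA6, NDUFA12, NDUFB10, NDUFC1 and NDUFS8). By that test UQCRH of complex III was at 0.052, and at 0.045 with arrays scaled to the median of the tested genes. With a common median NDUFA6, NDUFA12 and NDUFS8 were no longer under 0.05, at 0.10, 0.21 and 0.12.

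NDUFC1, a small accessory subunit of the membrane arm, had 256, 228 and 296 in processed samples 1, 2 and 3, against 359, 352 and 374 in the live samples. Every processed value was below every live value, a separation that 5 members (6.85%) and 2.96% of all genes showed in this direction, and that 0 members and 2.4% of all genes showed in the other. The difference was -0.45 ± 0.13 (SE, n = 3 pairs, limma adjusted p = 0.395). Here and below the SE is that of limma, which draws on the variance of all tested genes, and is not the spread of the 3 pairs alone. NDUFB10, another membrane arm subunit, had 1441, 735 and 1180 in processed and 1759, 1407 and 1346 in live samples. Its groups overlapped and H1 pair 2 was farthest apart, and the difference was -0.46 ± 0.17 (SE, n = 3 pairs, limma adjusted p = 0.475).

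NDUFS8, a core subunit with iron-sulfur clusters, had 2162, 2057 and 2320 in processed and 2575, 3223 and 2569 in live samples, again without overlap. NDUFA6, an accessory subunit of the matrix arm, had 262, 422 and 312 in processed and 404, 471 and 428 in live samples, and the groups overlapped because differentiation 2 was high in both. The differences of NDUFS8 and NDUFA6 were -0.35 ± 0.15 and -0.39 ± 0.14 (SE, n = 3 pairs), with limma adjusted p of 0.51 and 0.48. NDUFA12, an accessory subunit near the quinone site, was the most even of the 5, with pair differences of -0.28, -0.27 and -0.33 in pairs 1, 2 and 3.

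Leaving out differentiation 2 changed the calls. From pairs 1 and 3 alone limma called 688 of 12653 genes and 2 of 73 members, NDUFA6 among them (-0.51, adjusted p = 0.0449). A fit that leaves out a differentiation rests on only 2 pairs. Without differentiation 1 limma called 105 genes and without differentiation 3 it called 12, none of them members.

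Members above 0 in complex I were few. NDUFA9, an accessory subunit that binds NADPH, was higher in all 3 pairs by 0.03, 0.19 and 0.10 (0.11 ± 0.13, SE, n = 3 pairs, limma adjusted p = 0.793). NDUFB11 averaged 0.11 ± 0.15 (SE) but was at -0.18, 0.16 and 0.35 in pairs 1, 2 and 3, and its sign turned to -0.01 without the HUES8 pair. NDUFA13, also known as GRIM19, was higher in all 3 pairs by at most 0.11. NDUFA2, NDUFB8 and NDUFB9 averaged 0.03, 0.06 and 0.02. The dim members NDUFA5, NDUFC2, NDUFS1 and NDUFV3 had arrays on both sides of the minimum of 40 and pair differences of both signs. Their means were -0.04, 0.02, -0.03 and -0.27, so only NDUFC2 of these was above 0.

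The 4 genes of complex II had a median of 0.03, and 3 of them were above 0 on average. The pair medians were 0.0066 in HUES8 and -0.09 and 0.24 in H1 pairs 1 and 2, and no test between complexes was made. SDHC, which anchors the enzyme in the membrane, had 417, 315 and 292 in processed and 359, 253 and 281 in live samples. It was higher in all 3 pairs, by 0.18 ± 0.13 (SE, n = 3 pairs, limma adjusted p = 0.657). The flavoprotein SDHA averaged 0.04, the iron-sulfur protein SDHB -0.02 and the anchor SDHD 0.01, each with pairs of both signs and a standard error of 0.14 to 0.15. Each of these 3 turned its sign under another scaling or without a pair, whereas SDHC was above 0 under every alternative run for it.

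All 9 members of complex III were tested, and their median was -0.14. UQCRH, the hinge protein beside cytochrome c1, had 2073, 1230 and 2001 in processed and 2268, 2128 and 2265 in live samples. The groups did not overlap, and the difference of -0.36 ± 0.16 (SE, n = 3 pairs, limma adjusted p = 0.525) came mainly from H1 pair 2. UQCRHL, a near-identical copy, was at -0.32 ± 0.18 (SE), and probes of the pair may read both transcripts, so neither value is certain to belong to 1 gene. The core proteins UQCRC1 and UQCRC2 averaged -0.03 and 0.06, with the HUES8 pair above 0 and H1 pair 1 below 0 in both. The Rieske iron-sulfur protein UQCRFS1 was lower in every pair by similar amounts (-0.15, -0.16 and -0.10 in pairs 1, 2 and 3).

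Complex IV had 10 tested members of 15 and a median of -0.18, and its pairs were the farthest apart of the 5 complexes. The pair medians were 0.08 in HUES8 and -0.14 and -0.49 in H1. Over the 1266 brightest tested genes they were -0.03 in HUES8 and -0.07 and -0.30 in H1 pairs 1 and 2. COX5A, a subunit on the matrix side, had 2621, 1903 and 2808 in processed and 3290, 2836 and 2741 in live samples. Both H1 pairs were lower in the processed sample and the HUES8 pair was not, for a mean of -0.29 ± 0.15 (SE, n = 3 pairs, limma adjusted p = 0.56). COX7C was lower in all 3 pairs (-0.28 ± 0.14, SE), COX8A averaged -0.08 ± 0.15 and COX6A1 0.12 ± 0.14. NDUFA4, named as a complex I subunit but a component of complex IV, was at 0.25 in HUES8 and at -0.24 and -0.34 in H1 pairs 1 and 2.

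Subunits of complex IV with tissue variants had a value for each form. The widely expressed forms COX6A1, COX6B1, COX7A2, COX7B and COX8A all passed the filter. The muscle forms COX6A2 (12.5 to 27.0) and COX7A1 (-8.66 to 12.9) and the testis forms COX6B2 (4.82 to 13.6), COX7B2 (-7.77 to 6.80) and COX8C (-4.05 to 10.7) stayed under 40 on all 6 arrays. Also untested were NDUFB1 (19.3 to 43.8), NDUFB4 (4.91 to 12.0) and NDUFS6 (-6.43 to 4.63), whose subunits are found in complex I of most tissues. Whether the probes of these 8 genes detect their transcripts was not tested, and signals of different probes cannot be ranked.

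For ATP synthase, complex V, with the deposited scaling all 17 tested members of 18, of which 14 are subunits and ATP5EP2, ATP5S and ATP5SL are not, were below 0 on average (ATP5J2 and ATP5SL, at least, turned above 0 with a common median or quantile normalization), 10 of them in every pair, and the pair medians were -0.13 in HUES8 and -0.12 and -0.22 in H1. Of all tested genes 56.1% were below 0 on average and 19.8% were lower in every pair. Over the 1266 brightest tested genes the pair medians were -0.03 in HUES8 and -0.07 and -0.30 in H1 pairs 1 and 2. Under scaling to a common median complex V was at -0.06 and its H1 pair 2 turned to 0.01. The 4 peripheral stalk subunits (ATP5F1, ATP5H, ATP5J and ATP5O), which hold the catalytic head still, were each lower in 3 of 3 pairs. ATP5H had 1500, 1314 and 1281 in processed and 1635, 1777 and 1568 in live samples, without overlap, at -0.28 ± 0.13 (SE, n = 3 pairs, limma adjusted p = 0.538).

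In the catalytic head and central stalk, ATP5E was lower in all 3 pairs (-0.28 ± 0.14, SE), and the pseudogene ATP5EP2, a near-identical copy, was at -0.26. As with UQCRH and UQCRHL, whether these 2 rows read the same transcripts could not be tested, so neither value is certain to belong to 1 gene. ATP5B, the catalytic beta subunit, had 11460, 6746 and 7621 in processed and 11110, 10310 and 8182 in live samples, and only differentiation 2 was far apart. The 3 genes of the c subunit, whose ring turns in the membrane, encode the same mature protein. ATP5G1 had 255, 214 and 198 in processed and 351, 221 and 200 in live samples, so pair 1 held most of its difference. ATP5G2 had 1335, 1180 and 1370 in processed and 1729, 1117 and 1471 in live samples, and ATP5G3 (24.3 to 46.3) was not tested. ATP5J2 and ATP5SL, the members of this group nearest 0, averaged -0.01 and -0.0015.

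**Figure D2:**
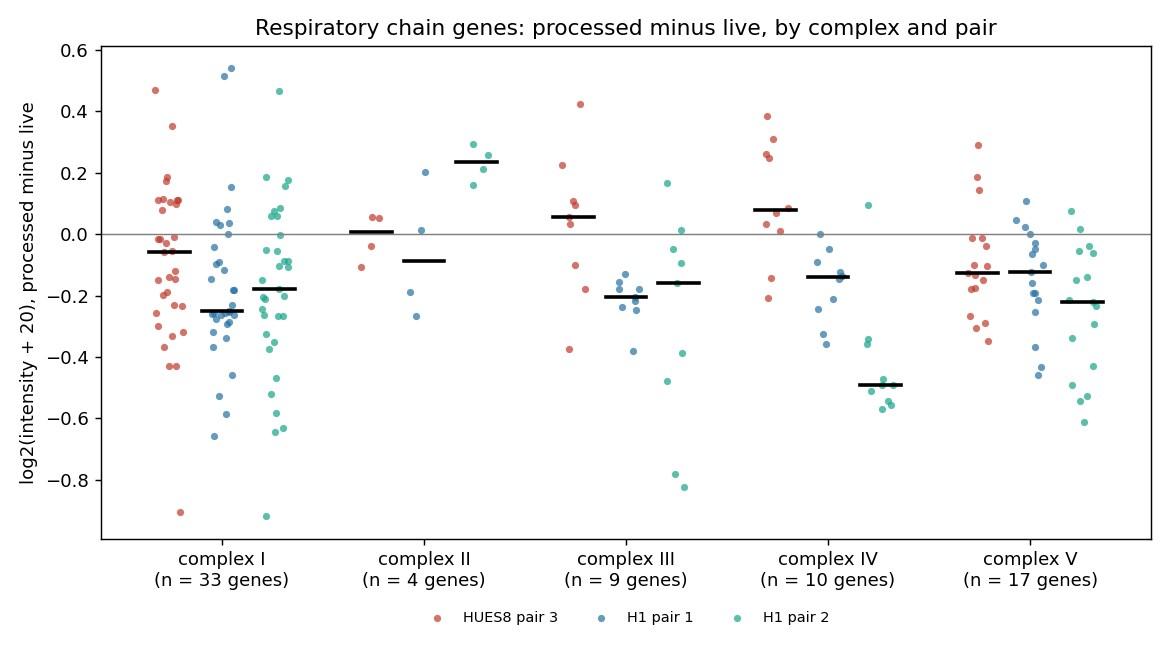
Difference on the log2(intensity + 20) scale, processed minus live, of each tested respiratory chain gene, by complex and pair, with black bars at the medians. In complex IV the median was 0.08 in the HUES8 pair and -0.14 and -0.49 in the H1 pairs, while in complex V it was -0.13, -0.12 and -0.22. Common-median scaling put H1 pair 2 above 0 in complexes I, III and V, and complex II in HUES8 turned below 0 when arrays were scaled to the median of the tested genes.

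**Figure D3:**
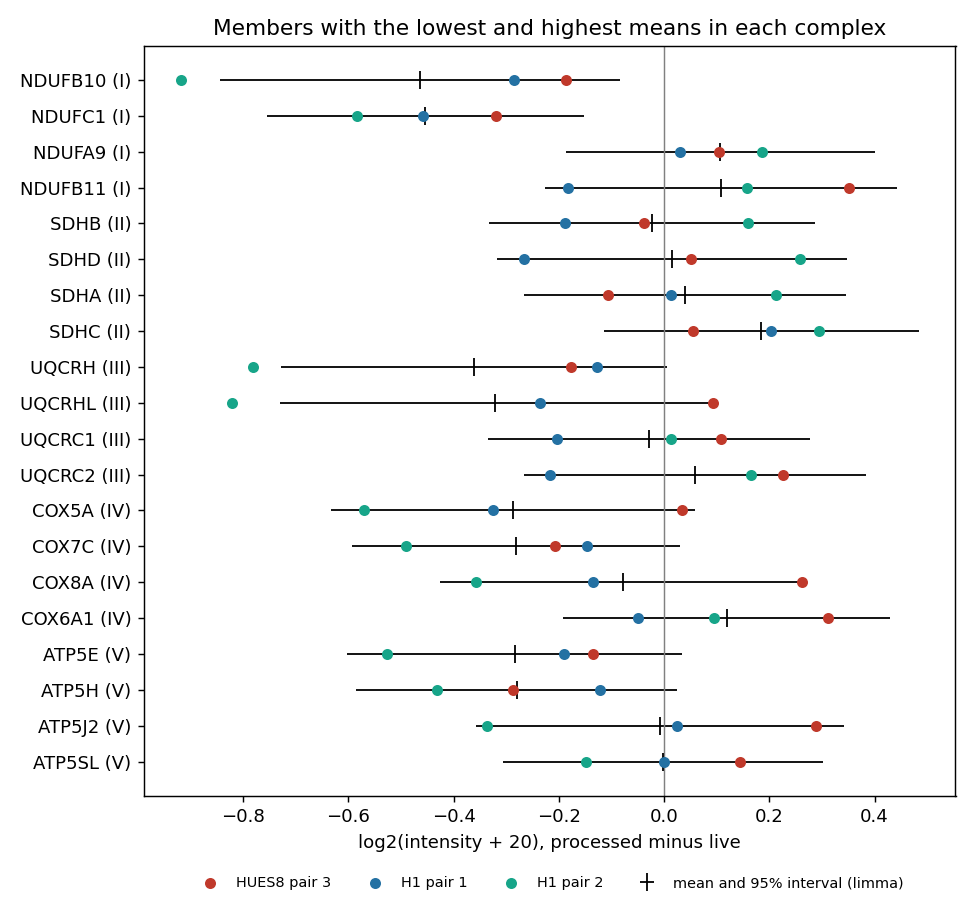
Difference on the log2(intensity + 20) scale, processed minus live, in each of the 3 pairs for the members with the lowest and highest means in every complex, with the mean and its 95% interval from limma. NDUFC1 was lower in all 3 pairs and SDHC higher in all 3, while the pairs of COX5A lay on both sides of 0.

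Between lines, the differences of HUES8 and H1 spread wider than those of processed and live samples, and again no member passed the test. Differences of the line means ran between -0.91 and 0.59, with a median of -0.05 for members and 0.02 for all genes, and 46 members were below 0 (63%, against 48.2% of all genes). The members' median turned to 0.06 with arrays scaled to a common median, where that of all genes was 0.11. On the 3 culture means limma called 219 genes (1.73%; 1.24% lower, 0.49% higher) and 0 of 73 members. At an unadjusted p under 0.05 it gave 10.6% of all genes and 1 member, NDUFA9, which was lower (6.1% of all genes were lower and 4.52% higher). With 1 HUES8 culture the line and the differentiation cannot be told apart, and a member's interval extended 0.74 to either side at the median. Marker levels differed with the line: 9 of 12 liver and gut endoderm markers (median -2.58) and 3 of 6 pancreatic progenitor and duct markers (-1.31) were called lower in HUES8, and 2 of 12 endocrine markers higher (-0.32 at the median). The progenitor and duct markers summed to 4376 (processed) and 4241 (live) in HUES8, against 6506 to 8884 in H1, and the endocrine markers to 23870 and 26070, against 20200 to 29830. Of 5 tested pluripotency markers 2 were called lower (median -0.38), although the list's sum was higher in HUES8, and 1 of 6 tested striated muscle markers was called lower (-1.15). Neural markers were 1.07 higher at the median, with 0 of 6 called, and mesenchyme markers were at -0.40, with 0 of 8 called. The part of these cell types in the members' differences was not tested.

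Both HUES8 arrays were below all 4 H1 arrays for 17 members (23.3%, against 18.5% of all genes) and above them for 6 (8.22%, against 18.8%). A difference of at least 1.5-fold was seen for 5 members (NDUFA9, NDUFB2, SDHD, UQCRQ and COX6A1; 6.85%, against 18.5%), and 0 members but 5.6% of all genes reached 2-fold. In complex I, 10 of 26 accessory subunits and 0 of 7 core subunits had both HUES8 arrays below all H1 arrays, and their medians were -0.12 and 0.05. With a common median as the scale, 10 members were below (13.2% of all genes) and 9 above (25.5%), and after quantile normalization 22 were below (18.5%) and 5 above (19.2%). The difference between core and accessory subunits was noticed after the values were seen and was not tested.

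NDUFA9 had 359 in processed and 332 in live HUES8 samples, against 711 and 677 in processed and 695 and 592 in live H1 samples. The 2 HUES8 arrays were far below all H1 arrays, and H1 was 1.88-fold higher in intensity plus 20 (HUES8 minus H1 -0.91, 95% interval -1.65 to -0.18, limma adjusted p = 0.287). COX6A1, the widely expressed form of a cytochrome c oxidase subunit, had 1207 and 969 in processed and live HUES8 samples. In H1 it had 2297 and 1533 in processed and 2376 and 1435 in live samples, so the difference of -0.77 (95% interval -1.56 to 0.02, limma adjusted p = 0.488) stood beside one of -0.65 between the H1 cultures.

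NDUFB2, an accessory subunit of the membrane arm, had 1492 and 1392 in processed and live HUES8 samples, against 2427 and 1742 in processed and 2686 and 2093 in live H1 samples (-0.61, limma adjusted p = 0.633). UQCRQ, a small subunit of complex III, had 1508 and 1118 in processed and live HUES8 samples, against 2234 and 1422 in processed and 2528 and 1988 in live H1 samples (-0.61, limma adjusted p = 0.633). Its processed HUES8 array lay above processed H1 sample 2, so the lines overlapped. SDHD, the anchor of succinate dehydrogenase, ran the other way, with 440 and 424 in HUES8 and 241 and 324 in processed and 294 and 268 in live H1 samples (0.59, 95% interval -0.14 to 1.32, limma adjusted p = 0.633).

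The promoters of these 5 members are shown because their genes had the widest differences between lines. Of the 82 members, 65 were matched by symbol to the RefSeq promoter table (GRCh38.p14), which gave 77 windows. Shown are the 250 bases before each gene's start, all on the plus strand of their chromosome, with matches to 5 motifs in capitals. The motifs were searched on both strands: the nuclear respiratory factor 1 motif (GCGC and TGCGC with any 1 base between them), CCGGAAG for ETS factors such as GABP, AAGATGGC for YY1, GGGCGG for SP1, and the TATA sequence TATAAA. In the sequences, capitals that read CTTCCGG or CCGCCC are ETS and SP1 matches on the other strand.
NDUFA9 (chr12:4648864-4649113): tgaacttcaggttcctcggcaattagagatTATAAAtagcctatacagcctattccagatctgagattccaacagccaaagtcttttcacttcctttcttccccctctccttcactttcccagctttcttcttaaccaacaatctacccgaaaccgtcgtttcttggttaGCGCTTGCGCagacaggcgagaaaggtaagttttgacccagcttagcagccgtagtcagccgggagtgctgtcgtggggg
NDUFB2 (chr7:140696458-140696707): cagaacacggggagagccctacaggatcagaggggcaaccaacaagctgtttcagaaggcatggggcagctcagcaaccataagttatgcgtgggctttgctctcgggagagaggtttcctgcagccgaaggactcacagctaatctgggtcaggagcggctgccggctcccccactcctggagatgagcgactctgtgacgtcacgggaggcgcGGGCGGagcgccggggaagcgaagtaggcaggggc
SDHD (chr11:112086623-112086872): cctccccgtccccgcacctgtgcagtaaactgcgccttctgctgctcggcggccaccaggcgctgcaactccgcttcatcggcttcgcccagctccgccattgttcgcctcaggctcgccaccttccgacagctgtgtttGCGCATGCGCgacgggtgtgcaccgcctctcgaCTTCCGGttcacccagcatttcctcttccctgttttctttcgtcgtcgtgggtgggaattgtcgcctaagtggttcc
UQCRQ (chr5:132866392-132866641): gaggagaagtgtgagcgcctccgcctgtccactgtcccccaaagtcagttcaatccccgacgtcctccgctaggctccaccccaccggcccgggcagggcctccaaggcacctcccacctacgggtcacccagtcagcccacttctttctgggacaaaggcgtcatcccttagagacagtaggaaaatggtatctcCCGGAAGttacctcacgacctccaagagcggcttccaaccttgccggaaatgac
COX6A1 (chr12:120437863-120438112): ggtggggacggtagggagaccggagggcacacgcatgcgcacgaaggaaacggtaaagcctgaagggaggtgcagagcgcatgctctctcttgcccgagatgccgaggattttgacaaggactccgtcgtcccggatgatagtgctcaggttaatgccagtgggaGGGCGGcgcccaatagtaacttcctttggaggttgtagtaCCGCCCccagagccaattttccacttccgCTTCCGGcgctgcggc

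NDUFA9 and SDHD, the members farthest below and above 0 between lines, both held a match to the nuclear respiratory factor 1 motif. SDHD, UQCRQ and COX6A1 each held an ETS match, and NDUFB2 and COX6A1 held SP1 matches. Over windows of 300 bases, which add 50 bases after the start, the nuclear respiratory factor 1 motif was found in 15 of 77 member windows (19.5%), against 5.8% of all 35116 windows. The ETS motif was in 26% against 10.3%, the YY1 motif in 16.9% against 2.9%, the SP1 motif in 58.4% against 45.0% and the TATA sequence in 9.1% against 11.5%. A match describes letters in a window and says nothing of binding in these cells.

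**Figure D4:**
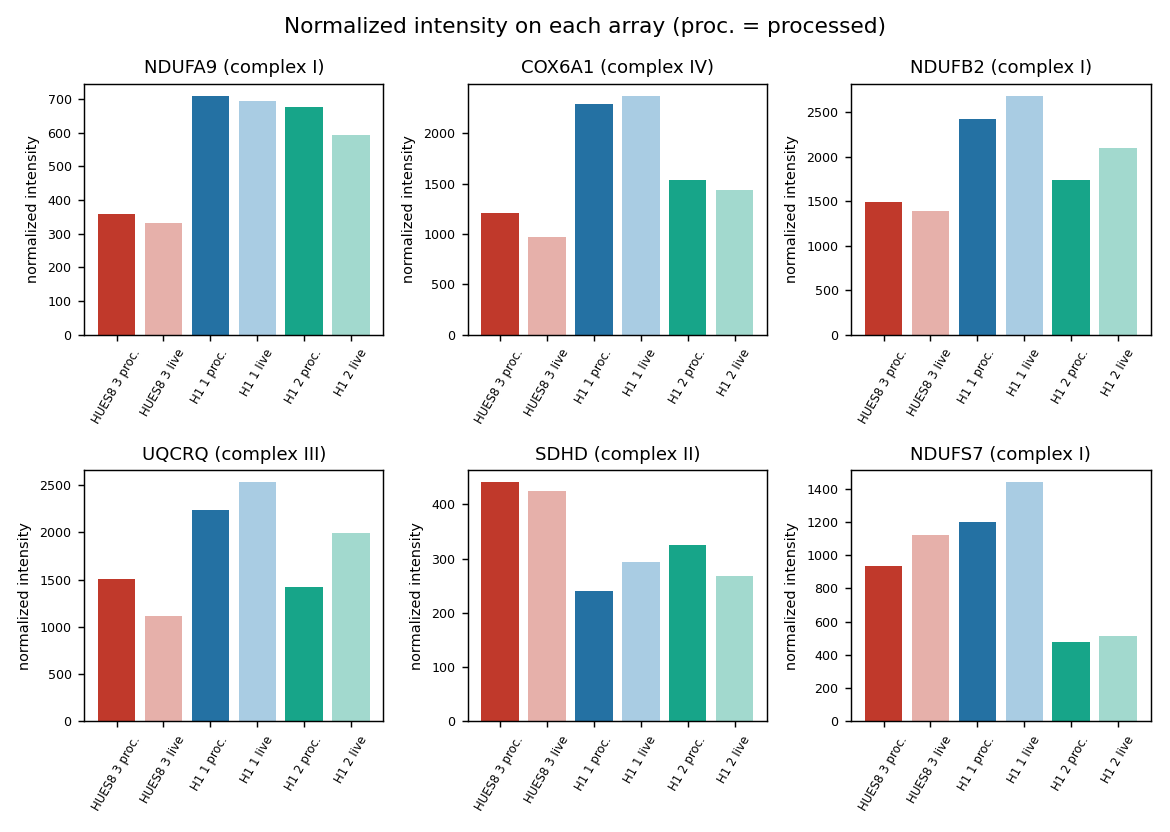
Normalized intensity on each of the 6 arrays for NDUFA9, COX6A1, NDUFB2, UQCRQ, SDHD and NDUFS7, with 1 bar per array and HUES8 left of H1. NDUFA9 had 359 and 332 in HUES8 and at least 592 in H1, and NDUFS7 had 477 and 514 in H1 differentiation 2 only.

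Other members with both HUES8 arrays above all H1 arrays were NDUFA5, NDUFB5, CYC1, ATP5C1 and ATP5F1. NDUFB5, an accessory subunit of the membrane arm, had 1929 and 2218 in processed and live HUES8 samples, against 1309 and 1399 in processed and 1396 and 1787 in live H1 samples (0.50, limma adjusted p = 0.734). ATP5C1, the gamma subunit that turns inside the catalytic head, had 1040 and 1256 in HUES8, against 900 and 701 in processed and 834 and 821 in live H1 samples (0.49, limma adjusted p = 0.746). NDUFA5 was dim and differed by 0.38, and cytochrome c1, CYC1, by 0.28. The Rieske protein UQCRFS1 differed by 0.23 and the b subunit ATP5F1 by 0.19.

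Complex IV had the lowest median between lines, -0.22, with COX6C at -0.42, COX5A at 0.09 and COX6B1 at 0.04. Scaling to a common median left it below 0, at -0.11, while complexes I, II, III and V turned above 0. ATP5I and ATP5J2, small membrane subunits of ATP synthase, differed by -0.41 and -0.40, and UQCR, a small subunit of complex III now named UQCR11, by -0.45. In complex II, SDHA, SDHB and SDHC differed by -0.04, -0.08 and -0.19.

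The spread between cultures of 1 line was of like size. H1 differentiation 2 minus 1 had a median of -0.15 over the members and -0.04 over all genes, with 49 of 73 members (67.1%) below 0, against 54% of all genes. Members at least 1.5-fold apart numbered 5, all lower in differentiation 2 (ATP5D, COX6A1, NDUFB9, NDUFB10 and NDUFS7), against 10.4% of all genes lower and 6.74% higher. NDUFS7, a core subunit that carries the last iron-sulfur cluster before ubiquinone, had 477 and 514 in processed and live samples of differentiation 2, against 1203 and 1439 in differentiation 1. That difference of -1.37 was larger than any member's difference between lines, and HUES8 lay between the H1 cultures, with 937 in the processed and 1123 in the live sample. There is 1 culture on each side, so no test was made.

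**Figure D5:**
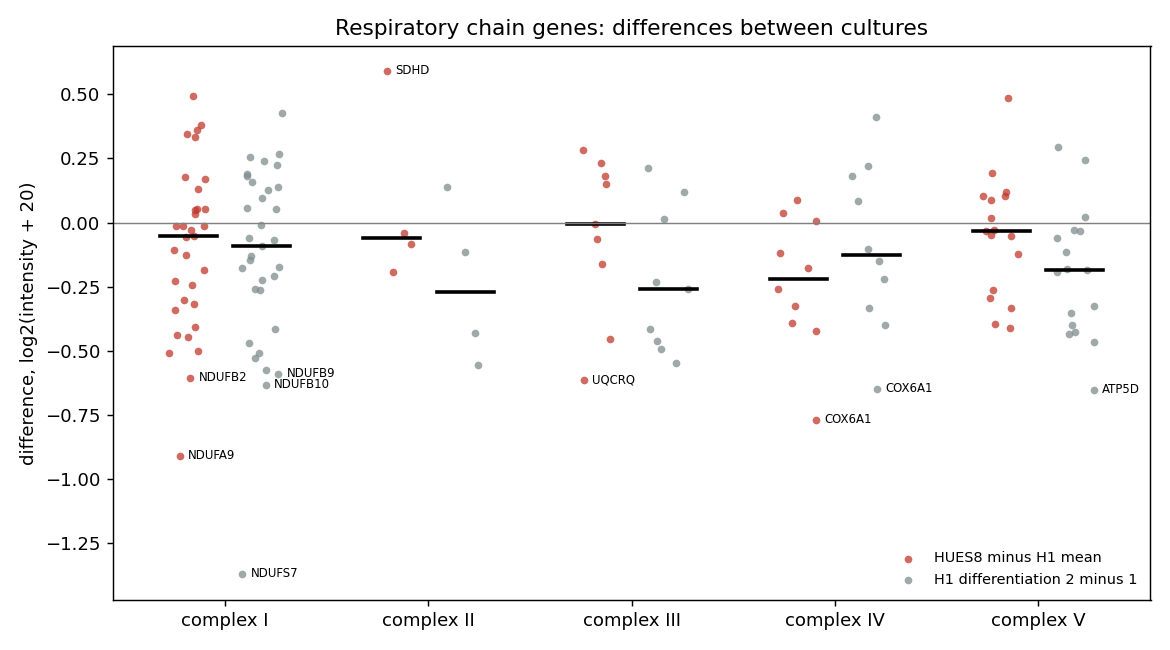
Differences on the log2(intensity + 20) scale between cultures for each tested respiratory chain gene by complex, HUES8 minus the H1 mean in red and H1 differentiation 2 minus 1 in grey, with black bars at the medians. NDUFS7 at -1.37 between the H1 cultures lay farther from 0 than NDUFA9 at -0.91 between the lines. With arrays scaled to a common median, the HUES8 minus H1 medians of complexes I, II, III and V were above 0, and that of complex III was also above 0 with the other 2 scalings.

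Whether processing moved the genes differently in the lines was asked by comparing the within-pair differences. Limma called 33 genes (0.261%) and 0 of 73 members, with 3 members, COX7A2 and UQCRQ among them, at an unadjusted p under 0.05, against 4.43% of all genes. The difference of the differences, HUES8 minus H1, had a median of 0.16 over members and 0.04 over all genes, and was above 0 for 52 members (71.2%), against 55.6%. The scaling moved these medians, to 0.03 for members and -0.08 for all genes with a common median, where 0 genes were called, and to 0.04 and -0.01 after quantile normalization. In 16 members (21.9%), against 10.3% of all genes, both H1 pairs were below 0 and the HUES8 pair above 0, 6 of them in complex IV and 4 in complex III. The reverse held for 2 members (NDUFC2 and SDHA), against 7.26% of all genes. COX7A2, the widely expressed form of that subunit, had 3043 in processed and 2323 in live HUES8 samples, against 2642 and 2305 in processed and 3391 and 3366 in live H1 samples. Its HUES8 pair and both H1 pairs thus moved in opposite directions, by 0.84 between HUES8 and the H1 mean. With 1 HUES8 pair the line and the differentiation cannot be told apart here either.

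Other genes of the mitochondrion were counted from lists of related function. Of 9 chain subunits that the naming rule leaves out, 7 were tested, 5 were lower in all 3 pairs and the median was -0.23. COX4I1, a subunit of complex IV, had 6466, 4472 and 5156 in processed and 7508, 5608 and 5747 in live samples (-0.23, limma adjusted p = 0.577). The 75 tested mitochondrial ribosomal proteins had a median of -0.14, with 31 lower and 5 higher in all 3 pairs. Assembly factors of the complexes (31 tested) were at -0.15, with 15 lower and 3 higher in all 3 pairs. The median over all 12653 genes was -0.03, and 19.8% of them were lower and 13.7% higher in all 3 pairs. The 73 tested respiratory chain members were at -0.16, with 30 lower and 3 higher in all 3 pairs.

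Regulators of mitochondrial biogenesis (16 tested) stood near 0 at -0.02, and the 14 citric acid cycle enzymes at -0.05, with 3 lower and 3 higher in all 3 pairs. Limma called 0 genes of these lists in any comparison. NUBPL, an assembly factor that helps build iron-sulfur clusters of complex I, stood apart with 2382, 1462 and 3759 in processed and 1661, 1226 and 1548 in live samples (0.68, limma adjusted p = 0.389). Between lines MRPL1, a mitochondrial ribosomal protein, had 463 and 582 in processed and live HUES8 samples, against 187 and 304 in processed and 228 and 337 in live H1 samples (0.96, limma adjusted p = 0.296).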

How the data were processed

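RNA of 6 samples, 3 processed and 3 live, was hybridised to 1 array each. The deposited intensities, 1 value per gene symbol, had been background-subtracted and rank-invariant normalized by the authors in GenomeStudio. Their probe annotation gives older symbols, and 20 of the 82 members were matched to a current symbol through RefSeq synonyms. A second deposited table of unnormalized values was not used, because its 12 columns name no labelled sample.

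Values below 0 (4.37% of all) were set to 0, 20 was added and log2 taken. Genes at 40 or more on at least 3 of 6 arrays were kept (40.3% of symbols). Limma 3.58.1 in R 4.3.3 was fitted across the 12653 genes with Benjamini-Hochberg adjustment, and a call needed an adjusted p under 0.05. Processed and live samples were compared with the differentiation as a block, since the culture of a differentiation had been divided between them. Same-numbered samples deviated together (correlations of 0.792, 0.618 and 0.807 in differentiations 1, 2 and 3). Lines were compared on the mean of each differentiation, and the processing effect on within-pair differences, each with 1 residual degree of freedom. For the processing effect limma gave every tested member the same standard error, 0.376. Its p-values there do not reflect a member's own spread between pairs. The single HUES8 culture was assumed to vary like the H1 cultures. Scripts were tested on simulated data. Replicates were separate differentiations, and their number limits the precision.

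Named genes were, in each complex, the 2 highest and 2 lowest of each comparison, members called, tissue variants of a subunit and the c subunit genes; others were named after their values were seen. Members and lists were chosen with earlier results of these data known. Other scalings, offsets, filters and left-out pairs were run as alternatives. Single-gene values of 1 member are not reported here.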

Additional observations from a re-analysis of the deposited data

Results flagged for a closer look

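The medians of complex III and complex IV, processed minus live, were above 0 in the HUES8 pair (0.0547 and 0.0773) and below 0 in both H1 pairs. In H1 pairs 1 and 2 they were -0.20 and -0.16 for complex III and -0.14 and -0.49 for complex IV. They stood out because the HUES8 pair moved in the opposite direction to both H1 pairs. With 1 HUES8 pair the line and the differentiation cannot be told apart. The difference of these medians was not tested, and single-gene tests of it called 0 members. Complex IV kept the opposite signs under all 3 other scalings, whereas complex III in H1 pair 2 was at 0.07 with arrays scaled to a common median. Over all tested genes the pair medians were -0.01 in HUES8 and -0.0001 and -0.07 in H1 pairs 1 and 2. Over the 1266 brightest tested genes they were -0.03 in HUES8 and -0.07 and -0.30 in H1 pairs 1 and 2. The part of signal intensity in the medians of complexes III and IV was not tested.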

How the results depend on the processing

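Among the alternatives run, a member was called only between processed and live samples without pair 2. With arrays scaled to a common median over all symbols, the members' median was -0.048 between processed and live samples, 0.033 for the processing effect and -0.24 for H1 differentiation 2 minus 1. The processing effect was 0.14 with the median of the tested genes and 0.0395 with quantile normalization, and ran between 0.132 and 0.15 without 1 H1 pair. H1 differentiation 2 minus 1 was -0.14 with the median of the tested genes, -0.0755 with quantile normalization, -0.175 with the filter on all 6 arrays, -0.17 in live samples and -0.18 in processed samples. Genes called between lines numbered 142 with an offset of 50, 0 without the filter, 80 with the filter on all 6 arrays, 111 in live samples and 128 in processed samples. Genes called for the processing effect numbered 0 with a common median, 12 with the median of the tested genes, 9 with an offset of 50 and 0 without the filter. Leaving out 1 pair called 12 to 688 of 12653 genes and 0 to 2 of 73 members between processed and live samples. With no replicate block limma called 0 genes and 0 members, with 192 of 12653 genes and 1 of 73 members at an unadjusted p under 0.05. The methods' t-test gave 320 of 12653 genes and 3 of 73 members unadjusted, and 0 after adjustment.

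The signs of some named genes turned, and the cause was not tested. Between processed and live samples, a common median gave SDHB 0.0887, UQCRC1 0.0844, COX8A 0.0368, ATP5J2 0.105 and ATP5SL 0.11, and quantile normalization SDHB 0.0411, UQCRC1 0.0374, ATP5J2 0.0829 and ATP5SL 0.0528. Leaving out 1 pair gave ranges of -0.114 to 0.0606 for SDHB, -0.0958 to 0.0602 for UQCRC1, -0.247 to 0.063 for COX8A, -0.157 to 0.157 for ATP5J2 and -0.0743 to 0.0723 for ATP5SL. The same ranges were -0.107 to 0.155 for SDHD, -0.0462 to 0.113 for SDHA, -0.0122 to 0.255 for NDUFB11 and -0.0252 to 0.196 for UQCRC2. Between lines, a common median gave SDHB 0.023 and SDHA 0.062, and live samples alone SDHA 0.0698, COX6B1 -0.118 and COX5A -0.155. Leaving out 1 H1 culture gave -0.0977 to 0.0176 for SDHA, -0.362 to 0.196 for SDHB, -0.41 to 0.0204 for SDHC, -0.0748 to 0.146 for COX6B1 and -0.0815 to 0.254 for COX5A. Of 253 gene values between processed and live samples 233 kept their direction and side of the threshold, 19 turned and 1 (NDUFA6 without pair 2) passed it. Between lines 209 of 219 kept both and 10 turned. Scaling to the tested genes' median, and the alternatives for complexes and for counts of members, were chosen after seeing the data.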
